A study of Mus musculus with 12 samples.

Results

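The insulin-like growth factor (IGF) genes were followed in mouse NIH3T3 fibroblasts that lack N-VEGF and in their unedited parent line, with and without hypoxia. The 10 genes were taken by name from the 54446 genes of the count table: the ligands Igf1 and Igf2, the receptors Igf1r and Igf2r, the binding proteins Igfbp3, Igfbp4, Igfbp5 and Igfbp6, and the pappalysins Pappa and Pappa2. RNA-seq counts came from 12 samples in 4 groups of 3. Wild type (WT) NIH3T3 cells and NIH3T3 cells carrying the dNVEGF deletion (ΔN-VEGF cells) were each sampled in normoxia and after 16 h of hypoxia below 0.2% oxygen. NIH3T3 is an established line of mouse embryonic fibroblasts. In ΔN-VEGF cells CRISPR/Cas9 had removed the coding region of N-VEGF, an N-terminal extension of VEGF-A, while the start site of the classical VEGF was kept. How many edited clones stand behind the ΔN-VEGF samples is not given in the sources used here, so an effect of the deletion and a difference between clones cannot be told apart. The labels do not say that samples of a group came from separate cultures, and p-values then measure only the spread between these samples.

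IGF-1 and IGF-2 are secreted growth factors that signal through the receptor tyrosine kinase encoded by Igf1r. The Igf2r product binds IGF-2 and carries it to lysosomes, and so clears it. IGF-binding proteins hold the ligands outside the cell, and the metalloproteases PAPP-A and PAPP-A2 cut some of these proteins and free the ligand, while the stanniocalcins Stc1 and Stc2 inhibit the pappalysins. Igf2 is an imprinted fetal growth gene, and its neighbour H19 is a noncoding RNA expressed from the other parental allele.

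All positions are in mouse build GRCm38. Igf2 lay at chr7:142650766-142666816 on the minus strand and Igf1r at chr7:67952827-68233668 on the plus strand. Igf2r lay at chr17:12682406-12769664 (minus strand), Igfbp4 at chr11:99041244-99054392 (plus strand), Igfbp6 at chr15:102144362-102149511 (plus strand) and Pappa2 at chr1:158711727-158980490 (minus strand). Igf2 shared 3596 of its 5723 exon bases with Gm49394, a gene model on the same strand that stood at 0 counts in every sample, and 98 bases with the antisense gene Igf2os. Because the treatment of such overlaps and of strand by the counting is not given in the sources used here, the level of Igf2 is uncertain and its comparison with Igf2os cannot be separated by strand. Pappa2 shared 310 exon bases with the noncoding gene 1600012P17Rik, which held 24 to 42 counts in the hypoxic ΔN-VEGF samples and 0 to 2 elsewhere (a gene chosen after its values were seen).

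Start-site sequences of 300 bases (250 before and 50 after an annotated start) came from RefSeq, build GRCm38.p6, which held 12 such windows for 9 of the 10 genes. They were searched on both strands for ACGTG, a form of the core letters bound by hypoxia-inducible factors, and no other form was searched. The Igf2r window and 1 of the 4 Igf2 windows held a match, so 2 of 12 windows or 16.7%, against 19.6% of all 32851 windows. The matching windows of Igf2 and Igf2r are printed with that of Pappa2, the member whose response was called different between lines, and capitals mark ACGTG or its reverse complement CACGT. The windows of Igf1r and Igfbp4, which also carry contrasts described below, held no match and are not printed. In Igf2r each pair of overlapping matches on the 2 strands forms CACGTG, which is also the letters of an E-box. A match describes letters and does not show a bound site.
Igf2, chr7:142658755-142659054, minus strand: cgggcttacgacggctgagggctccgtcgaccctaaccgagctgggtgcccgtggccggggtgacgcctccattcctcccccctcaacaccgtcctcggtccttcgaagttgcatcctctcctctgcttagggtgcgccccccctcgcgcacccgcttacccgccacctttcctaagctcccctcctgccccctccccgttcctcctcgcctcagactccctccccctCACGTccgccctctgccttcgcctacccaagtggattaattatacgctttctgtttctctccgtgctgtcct
Igf2r, chr17:12769657-12769956, minus strand: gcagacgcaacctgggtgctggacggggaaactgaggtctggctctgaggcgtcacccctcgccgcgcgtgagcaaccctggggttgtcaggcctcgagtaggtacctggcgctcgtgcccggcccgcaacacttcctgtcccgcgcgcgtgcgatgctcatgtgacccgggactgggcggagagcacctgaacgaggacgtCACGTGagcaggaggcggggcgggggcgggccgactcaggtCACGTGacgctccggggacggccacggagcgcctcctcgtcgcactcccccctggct
Pappa2, chr1:158958126-158958425, minus strand: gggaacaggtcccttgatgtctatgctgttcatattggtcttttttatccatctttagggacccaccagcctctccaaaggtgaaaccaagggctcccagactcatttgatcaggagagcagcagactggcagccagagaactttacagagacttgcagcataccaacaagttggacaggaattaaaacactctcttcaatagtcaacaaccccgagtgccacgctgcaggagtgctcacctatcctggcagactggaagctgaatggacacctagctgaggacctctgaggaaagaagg

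Counts on genes numbered 30519052 to 43056690 per sample. Normoxia replicate 2 stood apart from its group in both lines. In log2 CPM (counts scaled to library size) over the tested genes it correlated with the other WT normoxia samples at 0.956 and 0.957, where those correlated with each other at 0.996, and in ΔN-VEGF cells at 0.986 against 0.996. The summed level of 7 hypoxia-response genes was 401 to 556 CPM in all 6 normoxia samples and 5260 to 7360 CPM in the hypoxia samples, so normoxia replicate 2 lay with the normoxia samples on that list. The 11 fibroblast markers summed to 17300 CPM or more in every sample, most of it Vim, Fn1 and Col1a2. With hypoxia 2 of the 10 tested markers rose and 4 fell in WT cells, where 18.2% of all tested genes rose and 18.3% fell. In ΔN-VEGF cells 5 rose and 2 fell, where 26.9% of all tested genes rose and 26.4% fell. Under hypoxia 5 were higher in ΔN-VEGF than in WT cells and 0 lower, where 10.8% of all tested genes were higher and 9.36% lower. The 5 were Col1a1 by a log2 fold change of 1.58, Col3a1 by 1.57, Col1a2 by 0.79, Fn1 by 0.78 and Dcn by 3.38 (edgeR adjusted p = 0.0053, 0.044, 0.046, 0.021 and 0.0015). Sums of the 11 markers under hypoxia did not overlap, at 27400 to 29600 CPM in WT and 41800 to 43900 CPM in ΔN-VEGF samples. Lum had at most 6 counts, and the part of these markers in the IGF results was not tested. Epithelial, blood, muscle and fat lists summed to at most 10.4 CPM in any sample. The epithelial sum was 8.71 to 10.4 CPM in WT hypoxia and 2.27 to 3.9 CPM in the other groups. Krt14 rose with hypoxia in WT cells by a log2 fold change of 2.14 (edgeR adjusted p = 5.3e-05), while Cdh1 and Krt8 were not called there. The 4 endothelial markers summed to 1.81 to 8.05 CPM in the other groups and to 20.3 to 25.1 CPM in hypoxic ΔN-VEGF samples, where Cdh5 made up 19.4 to 24.4 CPM. Of the 4, Cdh5 rose with hypoxia in both lines (log2 fold change 1.47 in WT and 3.26 in ΔN-VEGF cells), Pecam1 rose in ΔN-VEGF cells, Tek had at most 12 counts and Kdr was at 0 in 11 of 12 samples, and the part of this shift in the IGF results was not tested. Gene counts of Vegfa do not check the deletion, since most of the transcript remains, and ranged from 1445 in ΔN-VEGF normoxia to 14033 in ΔN-VEGF hypoxia. In normoxia Vegfa was lower in ΔN-VEGF than in WT cells, at 35.7 against 69.4 CPM (log2 fold change -0.96, edgeR adjusted p = 0.039). Under hypoxia the line difference of 0.61 was not called (edgeR adjusted p = 0.074), and the difference between the responses of 1.57 was (edgeR adjusted p = 0.028).

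Per exon length, Igfbp6 was the most abundant of the 10 genes, with a median of 374 RPKM (CPM divided by exon length in kilobases) over the 12 samples. Igf2r had a median of 15.9 RPKM, Igfbp4 of 13.3 and Igf1r of 11.1, and the ranges of these 3 over samples overlapped. Igf2 had a median of 0.448 RPKM, Pappa2 of 0.211, Pappa of 0.0269 and Igf1 of 0.00933. Igf2 moved most in this order: it was at 0.0235 ± 0.0122 RPKM in WT hypoxia (SD, n = 3) and at 8.41 ± 0.269 RPKM in ΔN-VEGF hypoxia. Over its 2029 exon bases that no other gene shares, the latter would be 23.7 RPKM. Igfbp3 had 2 counts in a single ΔN-VEGF hypoxia sample and 0 in the other 11, and Igfbp5 had 1 count in a single ΔN-VEGF hypoxia sample and 0 in the other 11. A count of 3, the upper limit that a count of 0 allows, was worth 0.0578 to 0.103 CPM in these samples, which covers counting error only. Igf1, Igfbp3 and Igfbp5 did not pass the filter on low counts, and 7 of the 10 genes were tested.

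**Figure D1:**
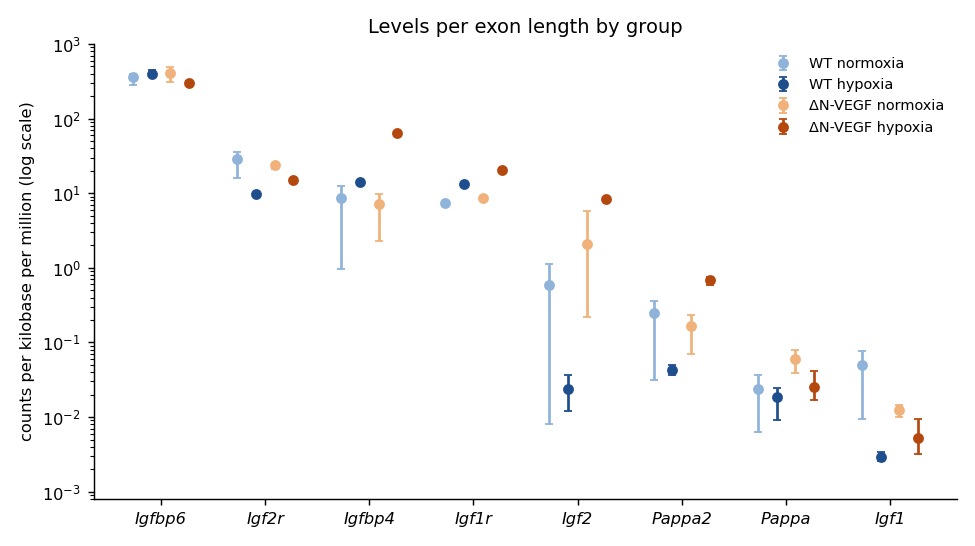
Mean RPKM per group on a log scale for the 8 genes with counts in every sample, in order of their median; bars run from the lowest to the highest of the 3 samples of a group. Igfbp6 lay above 280 RPKM in every sample, and Igf2 spanned 0.00811 to 8.69 RPKM.

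Igf2 was near the detection limit in hypoxic WT cells and high in every hypoxic ΔN-VEGF sample. In bulk RNA, fewer expressing cells and less RNA per cell cannot be told apart. Its counts in WT normoxia were 284, 2 and 186 in replicates 1, 2 and 3, and in WT hypoxia 8, 2 and 5. In ΔN-VEGF cells the counts were 58, 1389 and 63 in normoxia and 1588, 1451 and 1565 in hypoxia. Under hypoxia the lines did not overlap, whereas in normoxia replicate 2 was the lowest WT sample and the highest ΔN-VEGF sample, close to the hypoxia samples of its own line in each case. Mean levels under hypoxia were 48.1 ± 1.54 CPM in ΔN-VEGF and 0.135 ± 0.0699 CPM in WT cells (SD, n = 3 each). The log2 fold change was 8.40 ± 1.78 (SE), with an adjusted p of 0.008 (edgeR, quasi-likelihood test, adjusted by Benjamini-Hochberg over all tested genes), and Igf2 was called under all 21 alternatives that gave it a p, with adjusted p-values up to 0.044. From the pooled counts of 4604 and 15 the scaled ratio was 343, with an exact 95% interval of 208 to 614 for counting error.

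In the other comparisons edgeR with TMM scaling and the filter did not call Igf2. The log2 fold change with hypoxia was -4.57 ± 1.77 in WT cells (edgeR adjusted p = 0.065) and 2.02 ± 1.17 in ΔN-VEGF cells (edgeR adjusted p = 0.17). Between lines in normoxia it was 1.82 ± 1.20 (edgeR adjusted p = 0.45), and the difference between the 2 responses was 6.58 ± 2.13 (edgeR adjusted p = 0.11). With all samples kept, the change in WT cells was called with no filter, at -4.58 (edgeR adjusted p = 0.02), and with total counts, at -4.85 (edgeR adjusted p = 0.043), and the difference of responses with no filter, at 6.5 (edgeR adjusted p = 0.044). The replicate block over the 6 ΔN-VEGF samples called the rise there, at 3.36 (edgeR adjusted p = 0.038). The values moved with normoxia replicate 2. Without it in both lines, the changes with hypoxia were -5.11 ± 0.33 in WT and 5.11 ± 0.18 in ΔN-VEGF cells (edgeR adjusted p = 3.9e-11 and 9.1e-16), and Igf2 was lower in normoxic ΔN-VEGF than in normoxic WT cells, at -1.82 ± 0.22 (edgeR adjusted p = 1.1e-06). With it as the only normoxia sample of each line, the line difference in normoxia was 9.36 ± 0.30 (edgeR adjusted p = 2e-13), and the change with hypoxia was 1.52 ± 0.84 in WT cells (edgeR adjusted p = 0.13) and 0.55 ± 0.10 in ΔN-VEGF cells (edgeR adjusted p = 8e-05). In that setting the lone sample is assumed to vary like the hypoxia groups. The line difference under hypoxia was 8.14 to 8.84 under the same 21 alternatives, and DESeq2 gave no adjusted p for Igf2.

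Of the genes near Igf2, Igf2os and H19 were likewise lower in WT than in ΔN-VEGF hypoxia. Ins2 and the overlapping Gm49394 were at 0 in all 12 samples, Mir483 had at most 3 counts, and Ctsd stood at 172 CPM in WT and 181 CPM in ΔN-VEGF hypoxia (edgeR adjusted p = 0.86). Igf2os, the antisense gene, had 106, 1 and 110 counts in WT normoxia and 8, 7 and 14 in WT hypoxia, then 20, 112 and 11 in ΔN-VEGF normoxia and 85, 100 and 106 in ΔN-VEGF hypoxia. H19 had at most 14 counts in any sample, with 0, 1 and 1 in WT hypoxia and 8, 12 and 13 in ΔN-VEGF hypoxia. Under hypoxia Igf2os was higher in ΔN-VEGF than in WT cells by a log2 fold change of 3.48 ± 1.12 (edgeR adjusted p = 0.049). H19 had at most 4 counts in any WT hypoxia or ΔN-VEGF normoxia sample. It passed the filter on low counts only through samples of the other groups, where it was higher, so no test of it is given. Its 33 pooled counts in ΔN-VEGF hypoxia against 2 in WT hypoxia gave a scaled ratio of 18.5, with an exact 95% interval of 4.72 to 159 for counting error. In ΔN-VEGF cells the mean of H19 was 0.345 CPM in hypoxia and 0.0388 CPM in normoxia, without overlap.

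Igf1 was close to the detection limit. It had 33, 4 and 34 counts in WT normoxia, 1 in each WT hypoxia sample, 6, 6 and 4 in ΔN-VEGF normoxia and 1, 1 and 3 in ΔN-VEGF hypoxia. The groups of each line did not overlap between oxygen levels, and replicate 2 was again the low sample of WT normoxia. The pooled WT counts of 71 in normoxia and 3 in hypoxia gave a scaled ratio of 18.2, with an exact 95% interval of 5.99 to 90.5 for counting error. In ΔN-VEGF cells 16 pooled counts against 5 gave a ratio of 2.36, with an interval of 0.827 to 8.25 that includes 1. Igf1 did not pass the filter with all 12 samples. It passed in some fits with samples left out, through the 2 WT normoxia samples where it is high, so no test of it is given.

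**Figure D2:**
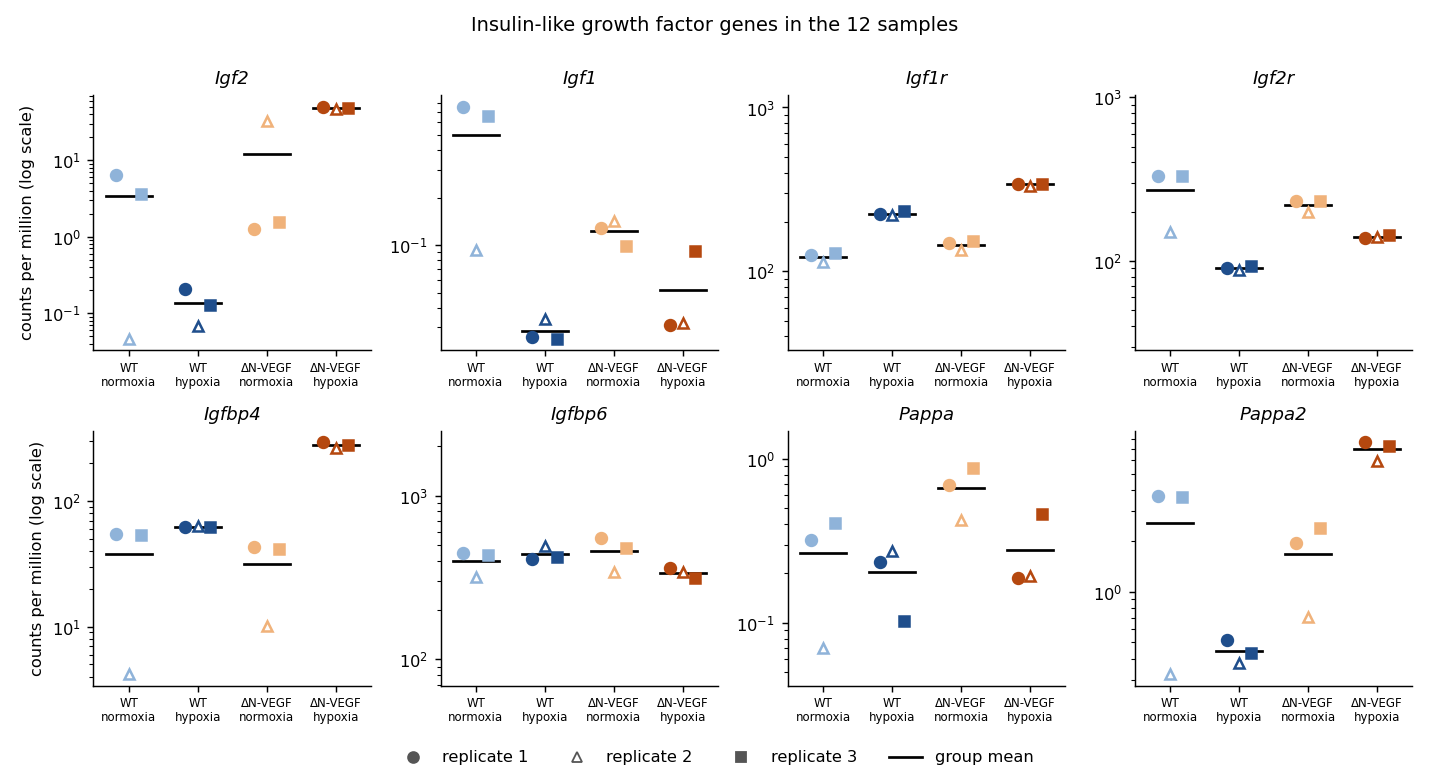
CPM of 8 genes on a log scale in each sample of the 4 groups; open triangles are replicate 2 and black lines group means. Replicate 2 of WT normoxia is the lowest sample of its group in all 8 panels, while in ΔN-VEGF normoxia it is the highest for Igf2 and Igf1 and the lowest for the other 6 genes.

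The signalling receptor and the clearance receptor moved in opposite directions with hypoxia in both lines. Igf1r had 5507, 4892 and 6724 counts in WT normoxia and 8584, 6418 and 9135 in WT hypoxia, then 6918, 5657 and 6193 in ΔN-VEGF normoxia and 10941, 10359 and 11092 in ΔN-VEGF hypoxia. Scaled to library size these were group means of 123 ± 8.32, 225 ± 6.79, 145 ± 9.55 and 339 ± 4.91 CPM (SD, n = 3 each), with no overlap between any of the compared groups. Igf1r rose by a log2 fold change of 0.87 ± 0.08 in WT (edgeR adjusted p = 1.6e-05) and of 1.22 ± 0.08 in ΔN-VEGF cells (edgeR adjusted p = 7.1e-07). It was higher in ΔN-VEGF than in WT cells under hypoxia, at 0.59 ± 0.08 (edgeR adjusted p = 0.0011), but in normoxia the difference of 0.24 ± 0.08 was not called (edgeR adjusted p = 0.14). The difference between the responses, 0.35 ± 0.12, was not called either (edgeR adjusted p = 0.12), and was called without normoxia replicate 2 at 0.34 ± 0.07 (edgeR adjusted p = 0.00059).

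Igf2r had 14556, 6514 and 17078 counts in WT normoxia and 3487, 2576 and 3642 in WT hypoxia. In ΔN-VEGF cells the counts were 10782, 8347 and 9556 in normoxia and 4433, 4343 and 4698 in hypoxia. Every hypoxia sample lay below every normoxia sample of its line, with replicate 2 the lowest normoxia sample in both. Igf2r fell by 1.58 on the log2 scale in WT cells, from 271 ± 104 to 90.5 ± 2.29 CPM (edgeR adjusted p = 0.00039). The ΔN-VEGF samples fell by 0.65, from 221 ± 20.5 to 141 ± 2.78 CPM (SD, n = 3 each; edgeR adjusted p = 0.034). The smaller fall in ΔN-VEGF cells missed the threshold without any 1 of the ΔN-VEGF samples other than normoxia replicate 2, with adjusted p-values of 0.072 to 0.082. Under hypoxia the level in ΔN-VEGF cells was higher by 0.64 ± 0.23 without overlap, which was not called by edgeR with all 12 samples (adjusted p = 0.075). It was called at 0.63 in the 6 hypoxia samples alone (edgeR adjusted p = 4.1e-08, and 1.4e-09 with the replicate block), at 0.64 without normoxia replicate 2 of both lines (edgeR adjusted p = 6.6e-10) and at 0.65 by DESeq2 (adjusted p = 0.04). The difference between the responses was 0.93 ± 0.33 (edgeR adjusted p = 0.14) and reached 1.13 ± 0.07 without normoxia replicate 2 (edgeR adjusted p = 9.9e-11), but only 0.26 ± 0.11 with replicate 2 as the sole normoxia sample (edgeR adjusted p = 0.12).

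Among the binding proteins, Igfbp4 rose with hypoxia in ΔN-VEGF cells and Igfbp6 was called in no comparison by edgeR with all 12 samples, TMM scaling and the filter. Igfbp4, whose product restrains IGF action and is a known PAPP-A substrate, had 2414, 181 and 2792 counts in WT normoxia, 2394, 1854 and 2440 in WT hypoxia, 1987, 428 and 1709 in ΔN-VEGF normoxia and 9372, 8252 and 9189 in ΔN-VEGF hypoxia. The hypoxic ΔN-VEGF samples were the 3 highest of the 12. Normoxia replicate 2 was the lowest sample of both normoxia groups. The rise in ΔN-VEGF cells, from 31.6 ± 18.6 to 280 ± 14.1 CPM (SD, n = 3 each), had a log2 fold change of 3.15 ± 0.76 (edgeR adjusted p = 0.005) and was called under all 23 alternatives, at 2.72 to 4.78. In WT cells the change was 0.73 ± 0.71 (edgeR adjusted p = 0.45). It was 0.21 ± 0.06 without normoxia replicate 2 (edgeR adjusted p = 0.0037) and 3.89 ± 0.12 with replicate 2 as the only normoxia sample (edgeR adjusted p = 3.5e-15).

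Under hypoxia Igfbp4 stood at 280 ± 14.1 CPM in ΔN-VEGF and at 62.6 ± 0.77 CPM in WT cells (SD, n = 3 each), without overlap. This log2 fold change of 2.16 ± 0.73 missed the threshold in that fit (edgeR adjusted p = 0.06). Other fits of all 12 samples called it, at 2.16 with no filter (edgeR adjusted p = 0.019), 2.14 with the replicate block (edgeR adjusted p = 0.047) and 2.18 by DESeq2 (adjusted p = 0.027), as did the 6 hypoxia samples alone, at 2.15 (edgeR adjusted p = 2.8e-14). It was 2.16 ± 0.05 and called without normoxia replicate 2 of both lines (edgeR adjusted p = 3.6e-17). The normoxia libraries are not part of the hypoxia contrast and enter it through the shared estimate of the spread. Igfbp6, whose product prefers IGF-2, ranged from 10176 to 25595 counts, with group means of 399 ± 69.6 and 441 ± 44.9 CPM in WT normoxia and hypoxia and of 456 ± 107 and 337 ± 24.2 CPM in ΔN-VEGF normoxia and hypoxia. Its change with hypoxia was 0.15 ± 0.18 in WT (edgeR adjusted p = 0.55) and -0.44 ± 0.18 in ΔN-VEGF cells (edgeR adjusted p = 0.058). Without normoxia replicate 2 the latter was -0.61 ± 0.08 (edgeR adjusted p = 5.4e-07), and it was also called with no filter (-0.53, edgeR adjusted p = 0.019), with total counts (-0.85, edgeR adjusted p = 0.0049) and in the 6 ΔN-VEGF samples alone (-0.46, edgeR adjusted p = 0.041). Under hypoxia Igfbp6 was lower in ΔN-VEGF than WT samples without overlap, at -0.39 ± 0.18, which was not called by edgeR with all 12 samples (adjusted p = 0.15) and was called in the 6 hypoxia samples alone at -0.40 (edgeR adjusted p = 0.00016).

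Pappa2 moved with hypoxia in opposite directions in the 2 lines. Its counts were 162, 14 and 190 in WT normoxia and 20, 11 and 17 in WT hypoxia, and 90, 30 and 98 in ΔN-VEGF normoxia and 245, 186 and 239 in ΔN-VEGF hypoxia. The ΔN-VEGF groups did not overlap, whereas the WT groups did through normoxia replicate 2. In WT cells Pappa2 fell by 2.52 on the log2 scale, from 2.56 ± 1.94 to 0.443 ± 0.0717 CPM (edgeR adjusted p = 0.02), and in ΔN-VEGF cells it rose by 2.05 ± 0.65, from 1.68 ± 0.874 to 7.0 ± 0.894 CPM (SD, n = 3 each; edgeR adjusted p = 0.02). The difference between the responses was 4.57 ± 0.98 (edgeR adjusted p = 0.033). It lost its call when any 1 sample was left out other than normoxia replicate 2 of either line (10 of 21 alternatives, adjusted p up to 0.11), and ranged from 2.84 to 5.07. The fall in WT cells lost its call without either WT normoxia replicate 1 or 3 or any 1 WT hypoxia sample, at -2.17 to -2.64 (edgeR adjusted p = 0.054 to 0.07), and it was -2.56 in the 6 WT samples alone (edgeR adjusted p = 0.075) and -2.16 in these with the replicate block (edgeR adjusted p = 0.14). The rise in ΔN-VEGF cells lost its call without ΔN-VEGF normoxia replicate 2 or hypoxia replicate 1, at 1.68 and 1.98 (edgeR adjusted p = 0.069 and 0.053), and when libraries were scaled by total counts only, at 1.64 (edgeR adjusted p = 0.059). With normoxia replicate 2 as the only normoxia sample the WT change was 0.45 ± 0.44 (edgeR adjusted p = 0.38), so the fall there rests on normoxia replicates 1 and 3. Under hypoxia Pappa2 was higher in ΔN-VEGF cells by 3.96 ± 0.75 (edgeR adjusted p = 0.0047), and this was called under all 23 alternatives.

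Pappa, which encodes the founding pappalysin, was low. It had 14, 3 and 21 counts in WT normoxia, 9, 8 and 4 in WT hypoxia, 32, 18 and 36 in ΔN-VEGF normoxia and 6, 6 and 15 in ΔN-VEGF hypoxia. Hypoxia and normoxia samples overlapped in WT cells, and in ΔN-VEGF cells the ranges in CPM overlapped as well. The change with hypoxia was -0.43 ± 0.62 in WT (edgeR adjusted p = 0.62) and -1.23 ± 0.56 in ΔN-VEGF cells (edgeR adjusted p = 0.084). The latter was called in the 6 ΔN-VEGF samples alone, at -1.26 (edgeR adjusted p = 0.034, and 0.014 with the replicate block at -1.29), with total counts, at -1.64 (edgeR adjusted p = 0.033), and without normoxia replicate 2 of both lines, at -1.47 (edgeR adjusted p = 0.0016).

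Counted over the genes, hypoxia in WT cells raised 1 (Igf1r) and lowered 2 (Igf2r and Pappa2) of the 7 tested, where 18.2% of all 14724 tested genes were called higher and 18.3% lower. In ΔN-VEGF cells 3 rose (Igf1r, Igfbp4 and Pappa2) and 1 fell (Igf2r), where 26.9% of all tested genes were higher and 26.4% lower. Between lines in normoxia edgeR called 0 of the 7, where 1.39% were higher and 2.97% lower. There 2 genes were higher and 0 lower at an unadjusted p below 0.05, and DESeq2, which called 9.9% of all tested genes, called 1 higher (Igf1r) and 0 lower. Under hypoxia 3 were higher in ΔN-VEGF cells (Igf2, Igf1r and Pappa2) and 0 lower by edgeR, where 10.8% were higher and 9.36% lower. DESeq2, with 25.7% of all tested genes called, had 4 higher there (Igf1r, Igf2r, Igfbp4 and Pappa2) and gave no adjusted p for Igf2. For lower levels, 0 genes had an unadjusted p below 0.05 and DESeq2 called 0. The response differed between lines for 1 gene (Pappa2), upward in ΔN-VEGF cells, where 2.21% of all tested genes were called upward and 1.15% downward. The median log2 fold change of the 7 was -0.43 in WT and 1.22 in ΔN-VEGF cells with hypoxia, 0.19 between lines in normoxia and 0.64 between lines in hypoxia, beside -0.07, -0.01, -0.03 and -0.01 over all tested genes.

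**Figure D3:**
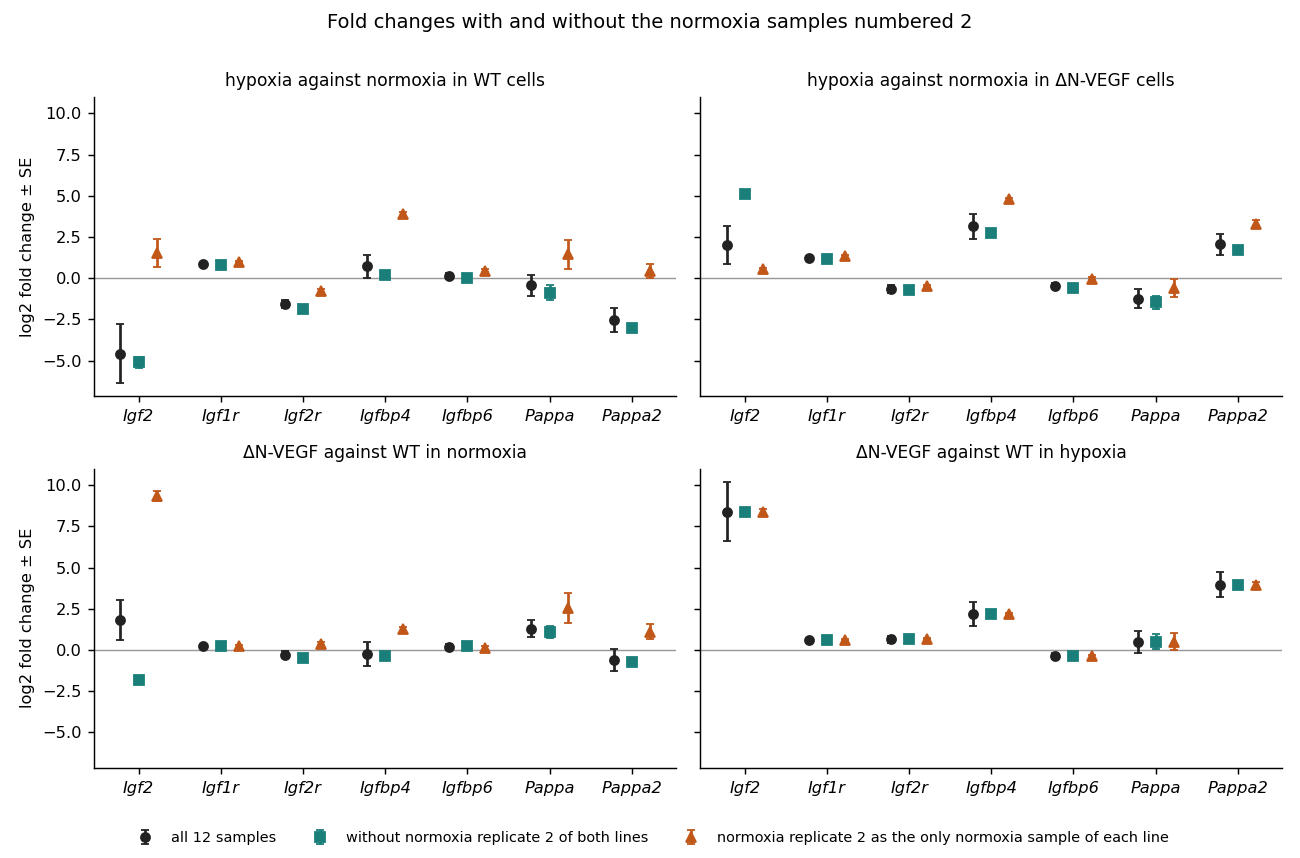
Log2 fold change ± SE of the 7 tested genes in 4 comparisons, with all 12 samples (circles), without normoxia replicate 2 of both lines (squares) and with normoxia replicate 2 as the only normoxia sample of each line (triangles). In hypoxia the 3 settings gave 8.39 or 8.40 for Igf2, whereas in normoxia they gave 1.82, -1.82 and 9.36.

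Leaving out normoxia replicate 2 of both lines raised the number of called members to 5 for hypoxia in WT cells, 7 for hypoxia in ΔN-VEGF cells, 7 between lines in normoxia, 6 between lines in hypoxia and 6 for the difference between responses, of the same 7 (Igf1 not counted). The share of all genes called rose as well, to 65.3%, 71.4%, 53.6%, 55.8% and 52.8% in the same order, so the members' counts are read against those shares. Without the WT library alone the shares were 54%, 67.1%, 48.9%, 42.4% and 44.4%, and without the ΔN-VEGF library alone 36.9%, 47.1%, 4.18%, 21% and 4.76%. The same-numbered samples of the 2 lines deviated together in normoxia (correlations of 0.378, 0.498 and 0.355 over genes), and with the replicate number as a block over these 6 samples edgeR called 0 members and 0 of the other pathway genes between lines. The fit of the same 6 samples without the block also called 0 and 0. Over all genes these 6-sample fits called 0.00718% with and 0.108% without the block.

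A list of 45 other genes of the pathway (insulin genes, other binding proteins, proteases and their inhibitors, insulin receptors, adaptors, kinases and Igf2 mRNA-binding proteins) was examined, and 36 passed the filter. Hypoxia raised 10 and lowered 7 in WT cells, where 18.2% of all tested genes rose and 18.3% fell, and raised 16 and lowered 5 in ΔN-VEGF cells, where 26.9% rose and 26.4% fell. Between lines 1 was higher and 3 lower in ΔN-VEGF cells in normoxia (1.39% and 2.97% of all tested genes) and 9 higher and 5 lower in hypoxia (10.8% and 9.36%). The response of 1 differed, downward (1.15%). Their median log2 fold change was 0.02, 0.36, -0.16 and 0.12 in the 4 comparisons, beside -0.07, -0.01, -0.03 and -0.01 over all tested genes. Insulin genes, Igfbp1, Igfbp2, Igfbpl1, Igfals, Prg2, Insrr and Irs4 did not pass. H19 is counted among the 36, the 16 and the 9, though it passed only through samples of the groups where it was higher.

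Stc1, a pappalysin inhibitor, had the largest rise of the 36 genes in both lines. It stood at 3.95, 6.13 and 4.41 CPM in WT normoxia and at 72.3, 61.2 and 69.2 CPM in WT hypoxia, and went from 5.79, 4.22 and 5.78 to 99.8, 99.1 and 102 CPM in ΔN-VEGF cells. Normoxia replicate 2 lay with its own group for this gene. The log2 fold changes were 3.81 ± 0.18 in WT (edgeR adjusted p = 1.2e-07) and 4.25 ± 0.19 in ΔN-VEGF cells (edgeR adjusted p = 2.8e-08). Stc2 rose by 1.39 ± 0.26 (edgeR adjusted p = 0.0018) and by 1.90 ± 0.26 (edgeR adjusted p = 0.00013). Htra1, a secreted serine protease that can cleave IGF-binding proteins, rose by 1.77 ± 0.13 and by 1.27 ± 0.13 (edgeR adjusted p = 1.8e-06 and 1e-05).

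Downstream of the receptor, Pik3r3, a regulatory subunit of PI3-kinase, fell from 10.7 to 2.18 CPM in WT and from 14.7 to 0.852 CPM in ΔN-VEGF cells. The falls were by 2.30 ± 0.25 and by 4.10 ± 0.28 on the log2 scale (edgeR adjusted p = 3.7e-05 and 5.6e-07). Their difference of -1.80 ± 0.36 was called (edgeR adjusted p = 0.026), the only such call among the 36 genes. The number of such calls ranged from 0 to 24 as each sample was left out in turn, where 0.493% to 44.4% of all tested genes were called. The Pik3r3 call was lost in 8 of these 12 fits, at -1.64 to -1.89 (edgeR adjusted p = 0.051 to 0.089). Foxo3, a transcription factor that AKT inhibits, rose by 1.65 ± 0.34 and by 2.86 ± 0.35 (edgeR adjusted p = 0.0029 and 5.4e-05). In ΔN-VEGF cells the adaptors Shc1 and Irs2 rose by 1.42 ± 0.09 and 1.38 ± 0.23 and the insulin receptor gene Insr by 1.29 ± 0.31 (edgeR adjusted p = 4e-07, 0.00045 and 0.0046). Igf2bp3, which encodes an RNA-binding protein that binds Igf2 mRNA, fell there by 1.42 ± 0.14 (edgeR adjusted p = 1.1e-05). Shc1, Irs2 and Igf2bp3 were also called in WT cells, in the same direction, at 0.92, 0.75 and -0.76 (edgeR adjusted p = 1.7e-05, 0.024 and 0.0015), and none of their differences in response was called (edgeR adjusted p = 0.058, 0.29 and 0.09).

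**Figure D4:**
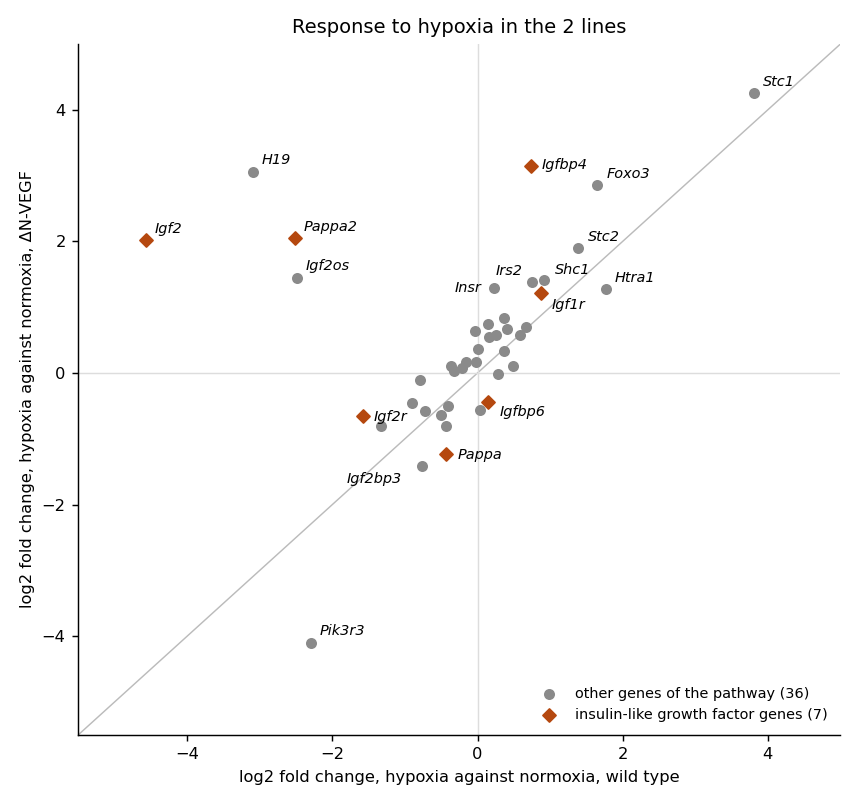
Log2 fold change with hypoxia in WT cells (x axis) and in ΔN-VEGF cells (y axis) for the 7 tested IGF genes (diamonds) and 36 other pathway genes (circles); the grey diagonal marks equal change. Stc1 lies at 3.81 and 4.25, while Igf2, Pappa2, H19 and Igf2os lie in the quadrant with a fall in WT and a rise in ΔN-VEGF cells. Of these the fall and the rise of Pappa2 were called, and no test of H19 is given.

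Genes whose pattern over the 12 samples was most like that of a member were found by Pearson's r of log2 CPM among 12149 genes. For Igf2 they were Fmod (0.982), Saa3 (0.979), Col6a1 (0.977), Col6a2 (0.976) and Lamp2 (0.976). Fmod, which encodes the collagen-binding proteoglycan fibromodulin, had 64, 2 and 52 counts in WT normoxia, 1, 1 and 6 in WT hypoxia, 43, 304 and 34 in ΔN-VEGF normoxia and 269, 267 and 260 in ΔN-VEGF hypoxia. As with Igf2, normoxia replicate 2 was the low sample in WT and the high sample in ΔN-VEGF cells. Col6a1 and Col6a2 encode chains of collagen VI, and the replicate 2 samples of these 2 genes lay the same way. For Pappa2 the nearest were Trim25 (0.984), Lama4 (0.983), a laminin chain, and Hif1a (0.979), the oxygen-regulated transcription factor. For Igfbp4 they were Per1 (0.996), a circadian clock gene, Erbb3 (0.994) and Nectin2 (0.993). These values describe 12 samples that share library depth and group, and the shared position of normoxia replicate 2 enters each of them.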

How the data were processed

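RNA from 12 samples was converted to TruSeq v2 libraries and read as 80-bp single reads. The authors trimmed reads (Trim Galore with cutadapt 1.10), aligned them with TopHat2 2.1.0 and deposited raw counts per gene from HTSeq 0.6.1. Whether counting used strand is not given in the sources used here. Groups came from the labels. Counts were tested in edgeR 4.0.16 (R 4.3.3): filterByExpr kept 14724 genes, TMM scaled libraries, 1 mean per group was fitted over all 12 samples, and the quasi-likelihood test was adjusted over tested genes. A call is an adjusted p below 0.05. The SE of an edgeR log2 fold change was taken as its absolute value divided by the square root of the F statistic of the test. CPM used TMM-scaled totals, and log2 CPM a prior count of 2. RPKM used GENCODE exon lengths. The genes and pathway list were chosen with earlier results of these data known. Named were all members, pathway genes called with a fold change of at least 2, and the nearest genes by r. Same-numbered samples deviated together in normoxia only. The code was tested on simulated data. Alternatives were DESeq2 1.42.0, RLE factors, total counts, no filter, a minimum of 10 counts in each sample, a fold change of at least 2, the 6 samples of a comparison, a replicate block, each sample left out, and both normoxia samples numbered 2 left out. Leaving out the normoxia samples numbered 1 and 3 was chosen after seeing the data.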

Additional observations from a re-analysis of the deposited data

Results flagged for a closer look

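The difference between ΔN-VEGF and WT cells in the log2 response to hypoxia was called for Pappa2, at 4.57 ± 0.98 (edgeR adjusted p = 0.033), and for Pik3r3, at -1.80 ± 0.36 (edgeR adjusted p = 0.026). Pappa2 was higher in hypoxia than in normoxia in 3 of 3 ΔN-VEGF samples and lower than normoxia replicates 1 and 3 in 3 of 3 WT samples, while WT normoxia replicate 2 lay below them. Pik3r3 was lower in every hypoxia sample than in every normoxia sample of its line, in both lines, but the call of its difference was lost in 8 of the 12 fits that left out 1 sample (edgeR adjusted p = 0.051 to 0.089), as that of Pappa2 was in 10. The part of normoxia replicate 2 in the value of Pappa2 is given with the values above.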

How the results depend on the processing

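Counts of calls rose without normoxia replicate 2 of WT cells, and moved less without that of ΔN-VEGF cells, apart from the IGF genes called in WT hypoxia (5 with either 1 left out alone). Counts of called IGF genes, ordered as hypoxia in WT cells, hypoxia in ΔN-VEGF cells, lines in normoxia, lines in hypoxia and the difference of responses, were 3, 4, 0, 3 and 1 with all samples. They became 6, 7, 8, 6 and 7 without both normoxia samples numbered 2, and 4 between lines in normoxia, 6 in hypoxia and 4 for responses without the normoxia samples numbered 1 and 3. With 1 sample left out they were 2 to 5, 2 to 7, 0 to 4, 3 to 6 and 0 to 6. The share of all genes called in these fits was 26.8% to 54%, 42.9% to 67.1%, 1.1% to 48.9%, 10.1% to 42.4% and 0.493% to 44.4% in the same order. Igf1 passed the filter in such fits only through WT normoxia replicates 1 and 3. Not counting it, the 6, 8 and 7 without both normoxia samples numbered 2 become 5, 7 and 6, and the highest counts with 1 sample left out become 4 for WT hypoxia, 3 between lines in normoxia and 5 for responses. DESeq2 gave 1 between lines in normoxia and 2 for responses (9.9% and 10.7% of all genes), no filter 5 for WT hypoxia, Igf1 among them, and 2 for responses (16.5% and 1.47%), and the 6 hypoxia samples alone 6 (57%). Pathway counts were 17, 21, 4, 14 and 1. Without both samples numbered 2 they were 31 in WT hypoxia, 29 and 25 between lines in normoxia and hypoxia and 28 for responses, and 28, 15, 24 and 13 without those numbered 1 and 3, where 63.7%, 21.1%, 53.1% and 16.3% of all genes were called. With 1 sample left out they were 13 to 28, 19 to 28, 1 to 22, 6 to 22 and 0 to 24, beside the shares of all genes given above for these fits. A fold change of at least 2 left 5, 10, 0 and 3 in the first 4 comparisons (15.7%, 27.2%, 2.17% and 6.81% of all genes). The 6 samples of a comparison gave 0 between lines in normoxia and 23 in hypoxia (0.108% and 57%). Between lines in normoxia total counts and no filter each gave 2 (3.82% and 1.83% of all genes). For responses DESeq2 gave 6, total counts 4 and no filter 2 (10.7%, 6.13% and 1.47%). The replicate block over 6 samples gave 6 IGF genes and 25 pathway genes between lines in hypoxia (61.1% of all genes) and 7 IGF genes for ΔN-VEGF hypoxia (66.2%). It gave 6 pathway genes in WT hypoxia (13.3%) and 0 between lines in normoxia (0.00718%), and over 12 samples 2 pathway genes for responses (3.29%). The block also moved Igfbp4 between lines in normoxia to 0.14.

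Of 772 fold changes of members under alternatives, 654 kept direction and side of the threshold and 16 changed sign. Between lines in normoxia, Igf2 was -1.26 without ΔN-VEGF normoxia replicate 2 and -1.82 without both samples numbered 2. With 1 sample left out it ranged from -1.26 to 2.68, Igfbp4 in the same comparison from -0.77 to 0.18, Pappa between lines in hypoxia from -0.06 to 0.74 and Pappa in WT hypoxia from -0.87 to 0.02. Igfbp4 between lines in normoxia was 0.12 and 0.09 without WT normoxia replicates 1 and 3 and 0.18 without ΔN-VEGF normoxia replicate 2. Without the normoxia samples numbered 1 and 3, Igf2 was 1.52 in WT hypoxia and -0.97 for responses, Igf2r 0.38, Igfbp4 1.26 and Pappa2 1.11 between lines in normoxia, and Pappa 1.45 and Pappa2 0.45 in WT hypoxia. Igfbp6 in WT hypoxia was -0.10 with total counts, which moved the median of all genes to -0.30. Pappa was -0.06 between lines in hypoxia without ΔN-VEGF hypoxia replicate 3 and 0.02 in WT hypoxia without WT normoxia replicate 3. The cause was not tested. Depth limits Igf1, Igfbp3, Igfbp5 and Pappa, which had at most 36 counts in any sample.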
